A study of Mus musculus with 48 samples.

Results

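Lungs of C3H and C57B mice differed at least 4-fold in 76 of the 47561 genes of the deposited expression table in all 4 combinations of injection and air, and these 76 genes are described here. They were chosen by the measured values themselves. In each arm the mean FPKM (fragments scaled to transcript length and to the mapped fragments of the library) of 6 C3H and of 6 C57B lungs was taken and 0.1 was added to both means. The larger sum had to be at least 4 times the smaller, in the same direction in all 4 arms, with a higher mean of at least 3 FPKM in every arm. Genes with symbols starting with Rpl, Rps, H2- or Gm and a digit were left out, and 38 genes that met the rest of the rule fell away in this way, 23 of them higher in C3H. Of the 16994 genes with at least 1 FPKM in at least 3 lungs, 21 (0.124%) met the rule with a higher level in C3H and 55 (0.324%) with a higher level in C57B. All 76 members passed that filter on low values because the rule set a floor of its own, so passing it says nothing about them. The strain differences below are therefore descriptions without a test.

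The mice were adult C3H/hen and C57Bl/6 males and females. They received saline or 25 mg/kg aurothioglucose (ATG) intraperitoneally, a gold compound known to block thioredoxin reductase, and then spent 96 h in room air or in hyperoxia (more than 95% oxygen). The injection was taken from the sample labels, whereas the series description mentions ATG for every group and no saline. There were 3 mice in each of 16 groups and 48 mice in all, each with 1 lung RNA library. The labels name no C57Bl/6 substrain, the series description gives J and the study's methods give N. Nnt, which carries a deletion in C57BL/6J, had a mean of 10.9 FPKM in C57B and 10.3 FPKM in C3H. The libraries had the make-up of lung, since the 6 markers of alveolar type 2 cells, the 5 of type 1 cells, the 3 of club cells and the 4 of endothelium all exceeded 1 FPKM in every lung. Read depth was not given in the sources used here, and FPKM summed to between 510933 and 748290 per lung. No gene on the sex chromosomes or the mitochondrial genome had a value above 0 in any lung. On the third principal component, 2 of the 3 C3H males given saline in room air (mice 1 and 3) had scores of 65.1 and 57.7, against -21.0 to 38.1 for the other 46 lungs, and without them 75 genes met the rule, 74 of them members.

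Inbred strains carry fixed differences in their genomes, among them deleted genes, gene copies present in only some strains and variants that set how much RNA a gene makes. Antibodies are assembled in B cells from variable (V) segments and constant (C) segments of the heavy, kappa and lambda loci, whose segment content differs between strains, and plasma cells make most antibody RNA. Many genes also have near copies elsewhere in the genome, such as recent duplicates or processed pseudogenes (spliced copies written back into the genome), and short reads from such genes can match both places. The mm10 genome to which the authors mapped the reads is that of C57BL/6J.

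The members fell into classes that followed these categories unevenly. Immunoglobulin genes made up 43 of the 55 members higher in C57B, and none of the 21 higher in C3H was one. These 43 comprised 28 heavy, 10 kappa and 1 lambda V segments and 4 C segments. Of the other 33 members, 17 shared at least 10% of their 30-base transcript stretches with another gene, compared with 5346 of the 16671 tested genes outside the immunoglobulin loci (51.5% against 32.1%). The tested genes include the names that the rule left out, so these shares come from unlike sets of genes. The remaining 16 members, 11 of them higher in C3H, had sequence that was largely their own.

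**Figure D1:**
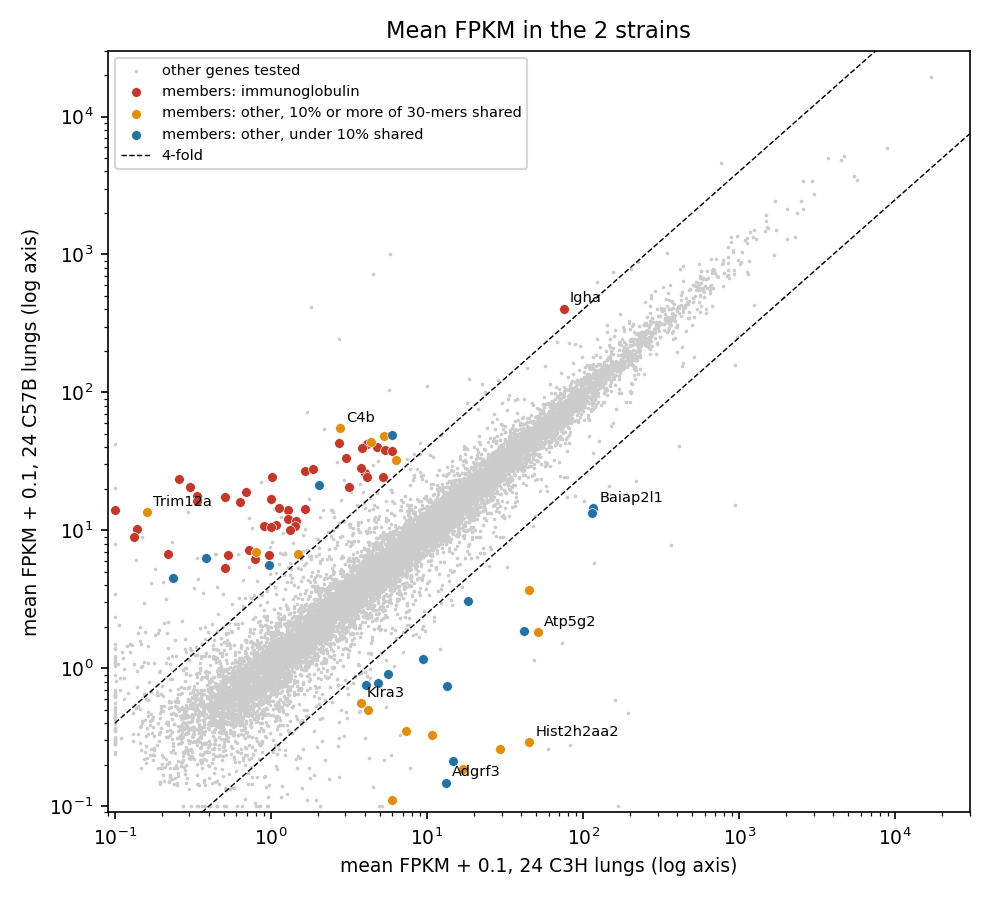
Mean FPKM plus 0.1 of each tested gene in 24 C3H lungs (x axis) and 24 C57B lungs (y axis), both on log axes, with dashed lines at 4-fold. The 76 members lie outside the lines by the rule that chose them, with all 43 immunoglobulin members (red) on the C57B side.

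All 21 members higher in C3H had no overlap between the 6 C3H and 6 C57B lungs in any arm, against 0.789% of tested genes higher in C3H, and 22 of the 55 higher in C57B had none, against 0.741% of tested genes higher in C57B. Nothing is read from these shares because the rule used the same contrast. Over all 48 lungs, 16 of 21 and 15 of 55 had no overlap, and outside the immunoglobulin loci 16 of 21 and 9 of 12. The mean was higher in the same strain in all 8 combinations of sex and arm for 75 members, and for Ighv10-1 in 7 of them. Among the 33 members outside the immunoglobulin loci, 25 separated all 48 lungs, and 6 of the 43 immunoglobulin members did. No share of all tested genes was taken over the 48 lungs. Nothing is read from these counts either, since the rule used the same contrast. Spread between mice of the higher strain differed between the classes. The median coefficient of variation was 31.1% for members higher in C3H, 47.6% for the 12 other members higher in C57B and 87.6% for the immunoglobulin members.

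Among the genes higher in C3H, a histone gene had the largest ratio. Hist2h2aa2, which encodes a core histone H2A (chr3:96239749-96240276, minus strand), lay between 28.8 and 62.0 FPKM with a median of 44.6 in the 24 C3H lungs. In C57B it was listed at 0 in 17 of 24 lungs and reached 1.10 FPKM in the highest. The arm ratios ran from 105-fold to 219-fold, values that depend on the added 0.1. All of its 30-base stretches also occur in each of 3 other genes. Its duplicate Hist2h2aa1 had a mean of 0.0706 FPKM in C3H and near 0 in C57B, Gm20634 had 0.125 and 0.733 FPKM, and Gm20633 had 0.7104 and 0.730 FPKM. On the opposite strand it overlaps the antisense gene Gm20632, which had the same order (8.79 FPKM in C3H and 1.58 FPKM in C57B). Its close neighbour Hist2h2ac lay between 0.633 and 8.16 FPKM in C3H and between 0 and 2.46 FPKM in C57B, and these ranges overlapped over all lungs. Hist1h2al, annotated as a processed pseudogene on chromosome 13, ranged from 6.53 to 28.1 FPKM in C3H and was listed at 0 in 22 of 24 C57B lungs. It shared 80.6% of its stretches with Hist2h2aa2, so the values of these 3 genes are not independent of each other.

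Several members higher in C3H had little or no shared sequence. Adgrf3, an adhesion G protein-coupled receptor (chr5:30193431-30205722), lay between 4.72 and 20.3 FPKM in C3H with a median of 13.1, and C57B lungs reached 0.726 FPKM with 16 at 0. The lowest C3H lung was thus above the highest C57B lung. Pianp, a ligand of the receptor PILRα, ranged from 8.67 to 22.1 FPKM in C3H and from 0.0725 to 2.02 FPKM in C57B. Baiap2l1, which bends membranes and bundles actin (chr5:144264526-144358112), was among the most abundant members at 116 ± 32.5 FPKM in C3H and 14.3 ± 2.48 FPKM in C57B (SD, n = 24 each), and its ratio varied little between arms (6.48-fold to 10.8-fold). On the opposite strand it overlaps Bri3, with 149 FPKM in C3H and 177 FPKM in C57B. Cytl1, a small secreted protein known from cartilage, ranged from 37.0 to 177 FPKM in C3H and from 3.07 to 30.8 FPKM in C57B, with no overlap. Tnn, the extracellular matrix protein tenascin N, had overlapping ranges over all lungs (1.03 to 18.2 FPKM in C3H and 0.159 to 2.48 FPKM in C57B) but none within an arm. Fbp2, the muscle form of the gluconeogenic enzyme fructose-bisphosphatase, Rad51ap1, a factor of homologous recombination, and the kinase Stk32c stood at lower levels. Their C3H means were 4.76, 5.50 and 3.95 FPKM and their C57B means 0.676, 0.802 and 0.657 FPKM.

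Gbp2b and Klra3 belong to families with known strain differences. Gbp2b, an interferon-inducible guanylate binding protein (chr3:142594847-142619179), lay between 6.80 and 24.2 FPKM in C3H and never exceeded 0.446 FPKM in C57B. Its neighbour Gbp2 stood at 20.0 FPKM in C3H and 22.1 FPKM in C57B, and only 4.33% of the Gbp2b stretches were shared with other transcripts. The coding windows of the pair are shown because they can be told apart, with capitals at the bases that differ (mm10, GENCODE M21, plus strand, Gbp2b chr3:142603650-142603709 and Gbp2 chr3:142630061-142630120):
Gbp2b: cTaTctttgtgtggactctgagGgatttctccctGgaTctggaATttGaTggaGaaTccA
Gbp2: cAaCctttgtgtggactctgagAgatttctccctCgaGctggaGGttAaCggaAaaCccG
Within this window, which was picked for the most differences up to 12, the pair differed at 12 of 60 bases. Of the 17 listed guanylate binding proteins and immunity GTPases, 14 were tested and only Gbp2b met the rule. Klra3, a Ly49 receptor of natural killer cells, lay between 1.48 and 5.31 FPKM in C3H and between 0 and 1.09 FPKM in C57B. It shared 45.0% of its stretches with other Klra genes, of which Klra8 and Klra9 had the opposite direction in their means (0.0141 and 0.399 FPKM in C3H, 0.752 and 1.26 FPKM in C57B). Klra10, with 21.9% of the Klra3 stretches, had the same direction (0.582 FPKM in C3H and 0.0916 FPKM in C57B). With Klra10, Klra3 summed to 4.24 FPKM in C3H and 0.552 FPKM in C57B. With Klra9, which held 33.1% of its stretches, Klra3 summed to 4.06 FPKM in C3H and 1.72 FPKM in C57B. It was the 1 member among the 22 tested natural killer complex receptors.

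Complement genes appeared on both sides. C4b, the complement component C4 encoded in the major histocompatibility locus (chr17:34728380-34743882), lay between 27.6 and 90.4 FPKM with a median of 51.9 in C57B and between 0.646 and 4.91 FPKM with a median of 2.55 in C3H. Not a single lung overlapped, and the ratio ran from 15.4-fold to 26.1-fold. Its duplicate C4a, with which it shared 49.2% of its stretches, was also lower in C3H in its mean (0.465 FPKM against 2.81 FPKM), and the FPKM of the pair summed to 3.15 in C3H and 57.4 in C57B. C1s2, a copy of the C1s protease of the classical pathway, went the other way, at 4.31 to 10.9 FPKM in C3H and up to 1.56 FPKM in C57B. C1s1 stood at 41.5 and 46.8 FPKM, so the summed pair had means of 48.7 FPKM in C3H and 47.1 FPKM in C57B, set mostly by C1s1. The windows are those with the most differences, up to 12, so reads could be told apart there but not everywhere (mm10, minus strand, capitals mark differing bases, C4b chr17:34735434-34735493, C4a chr17:34816090-34816149, C1s2 chr6:124625752-124625811, C1s1 chr6:124531530-124531589):
C4b: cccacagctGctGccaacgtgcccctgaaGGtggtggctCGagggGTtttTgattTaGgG
C4a: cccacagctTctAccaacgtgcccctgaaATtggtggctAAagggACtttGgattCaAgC
C1s2: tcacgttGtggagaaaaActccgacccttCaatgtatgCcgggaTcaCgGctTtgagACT
C1s1: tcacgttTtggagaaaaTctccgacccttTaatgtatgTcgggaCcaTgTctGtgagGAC
In these windows, C4b and C4a differed at 12 bases and C1s2 and C1s1 at 11 bases. Over 2082 aligned coding positions, C1s2 and C1s1 had the same base at 95.7%. C1s1 held 41.5% of the C1s2 stretches. Of the 19 tested complement genes no others met the rule.

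For another set of members, the sum over the gene and selected near copies differed much less between strains than the gene alone. Rnps1, a factor of the exon junction complex, had 6.25 FPKM in C3H and 32.2 FPKM in C57B, whereas Gm9825, a processed pseudogene of it on chromosome 6, had 25.6 FPKM in C3H and 7.26 FPKM in C57B. Their sum was 31.9 ± 9.57 FPKM in C3H and 39.5 ± 15.6 FPKM in C57B (SD, n = 24 each). Ahcy, which hydrolyses S-adenosylhomocysteine in the methionine cycle, had 1.38 and 6.59 FPKM. Its copy Gm4737 had 11.3 and 9.98 FPKM, and the sums were 12.6 FPKM in C3H and 16.6 FPKM in C57B. With the pseudogene Gm9826, which held 35.6% of the Ahcy stretches, the sums were 1.43 FPKM in C3H and 9.47 FPKM in C57B. Mpc1, a subunit of the mitochondrial pyruvate carrier, had 44.8 FPKM in C3H and 3.61 FPKM in C57B, but Mpc1-ps had 112 and 131 FPKM and the sums were 157 and 134 FPKM. With 4930506C21Rik, which overlaps Mpc1 on the opposite strand and held 18.4% of its stretches, the sums were 45.3 and 4.12 FPKM. Gm4737 and Mpc1-ps were more abundant than Ahcy and Mpc1 in both strains, so their sums say little about these 2 members. Eno1b, an enolase copy listed at 15.0 to 49.9 FPKM in C3H and at most 0.438 FPKM in C57B, shared 89.5% of its stretches with other enolase transcripts. Eno1, the glycolytic enolase itself, had 21.2 FPKM in C3H and 75.3 FPKM in C57B, and Eno1b, Eno1 and Gm4735 together summed to 84.7 ± 31.5 FPKM in C3H and 95.9 ± 40.6 FPKM in C57B (SD, n = 24 each). A sum of FPKM adds values scaled to different transcript lengths, and how reads with several matches were divided is not given in the sources used here, so the strain values of these 4 members are uncertain.

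Within the coding windows below, little separates the copies (mm10, capitals mark differing bases, Rnps1 chr17:24422150-24422209 plus strand, Gm9825 chr6:7982874-7982933 minus strand, Ahcy chr2:155064867-155064926 minus strand, Gm4737 chr16:46154508-46154567 minus strand, Mpc1 chr17:8296535-8296594 plus strand, Mpc1-ps chr12:110858760-110858819 minus strand):
Rnps1: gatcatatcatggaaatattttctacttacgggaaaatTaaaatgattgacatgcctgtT
Gm9825: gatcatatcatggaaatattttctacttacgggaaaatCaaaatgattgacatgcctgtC
Ahcy: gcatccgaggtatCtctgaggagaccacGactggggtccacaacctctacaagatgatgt
Gm4737: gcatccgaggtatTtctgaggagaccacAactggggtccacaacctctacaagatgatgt
Mpc1: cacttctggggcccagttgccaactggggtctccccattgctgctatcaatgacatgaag
Mpc1-ps: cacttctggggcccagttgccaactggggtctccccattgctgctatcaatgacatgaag
Rnps1 and Gm9825 had the same base at 99.4% of 843 aligned coding positions and Ahcy and Gm4737 at 99.7% of 1296. The window of Mpc1 is identical to that of Mpc1-ps, so a read lying inside it matches both places. Over their 327 aligned coding positions the ungapped identity was lower than for the other pairs and is not given. Over whole transcripts, Gm4737 held 68.8% of the Ahcy stretches. Gm9825 held only 12.9% of the Rnps1 stretches and Mpc1-ps only 12.7% of the Mpc1 stretches.

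**Figure D2:**
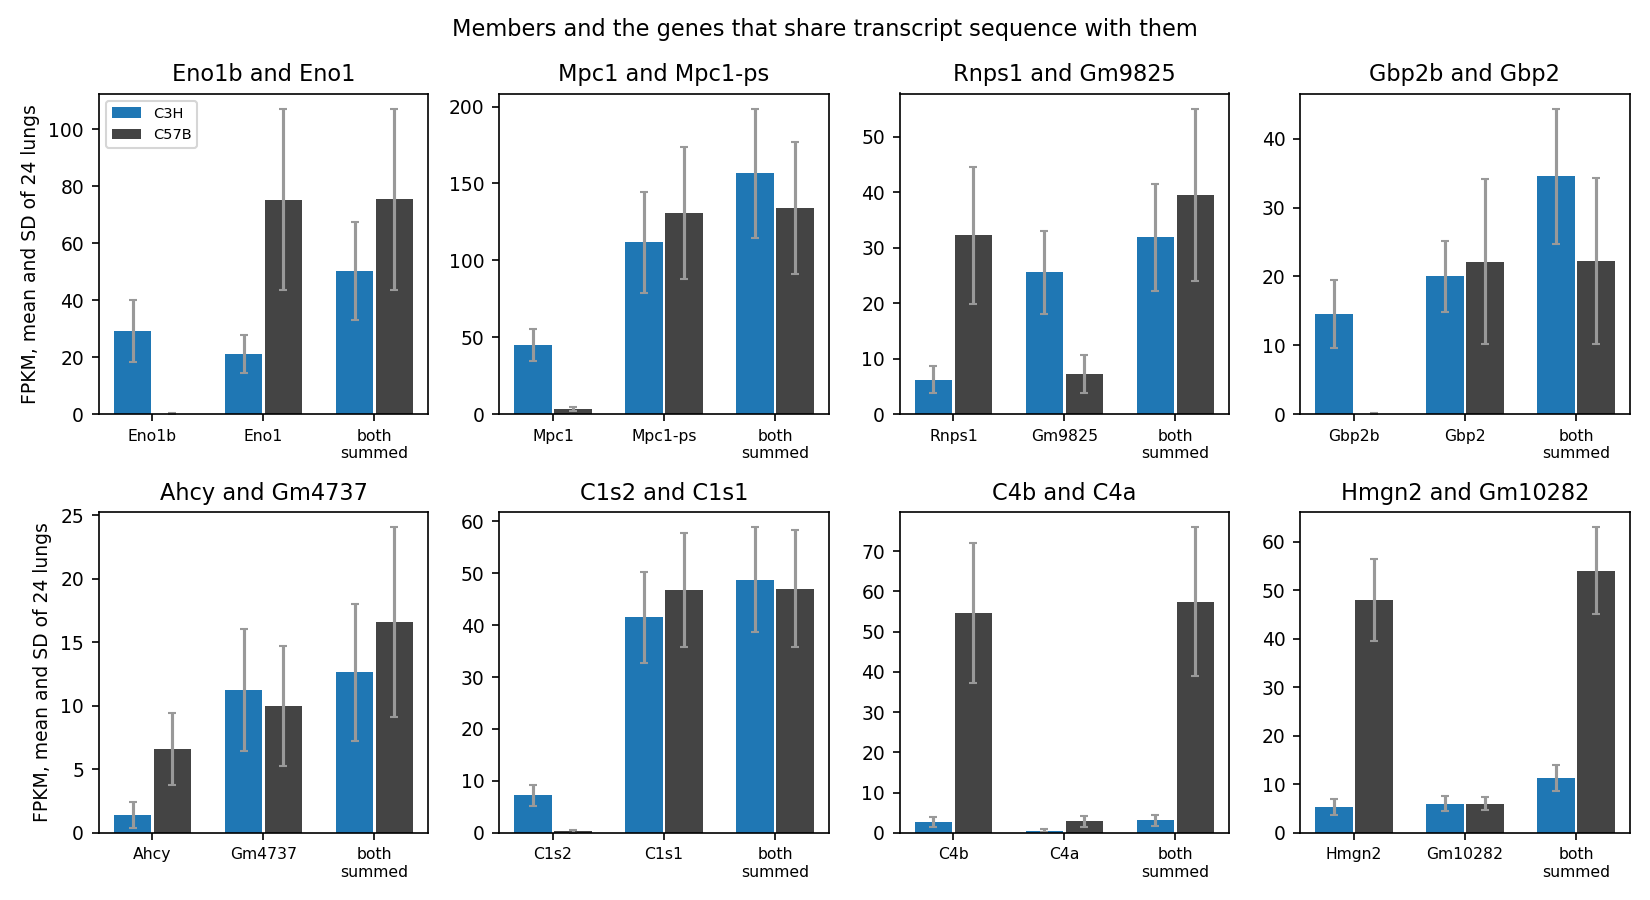
Mean FPKM of 8 members, of a gene that shares transcript sequence with each and of both summed, in C3H (blue) and C57B (grey), with SD over 24 lungs as error bars. The summed bars of Mpc1, Rnps1, Ahcy and C1s2 lie within 1.31-fold of each other between strains, whereas those of C4b and Hmgn2 differ by 18.3-fold and 4.80-fold. For Mpc1, Ahcy and C1s2 the copy shown is the more abundant of the pair in both strains, so the sum says little about the member.

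Hmga1, an architectural chromatin protein, had 4.26 FPKM in C3H and 43.9 FPKM in C57B and shared 62.5% of its stretches with other transcripts, so its strain values are uncertain too. Other members also shared sequence with copies. Hmgn2, a nucleosome-binding protein, had 5.23 FPKM in C3H and 48.0 FPKM in C57B with no overlap over all lungs, and its copy Gm10282 had 6.02 and 6.03 FPKM. The pair summed to 11.3 FPKM in C3H and 54.0 FPKM in C57B, a ratio of 4.80-fold. Atp5g2, which encodes subunit c of the mitochondrial ATP synthase, lay between 33.3 and 65.2 FPKM in C3H and between 0.290 and 3.80 FPKM in C57B, and its closest copies had means below 0.1 FPKM in both strains. Klk1b22, a tissue kallikrein, ranged from 1.99 to 19.4 FPKM in C3H and was above 0 in only 1 C57B lung, at 0.238 FPKM. Ccdc190 had 0.868 to 26.0 FPKM in C3H and up to 0.974 FPKM in C57B, and the antisense gene Gm15852, which overlaps it, had the same order (4.17 and 0.122 FPKM). Whether counting used the strand is not given in the sources used here, so reads from the part where these genes overlap, with 32.8% of the Ccdc190 stretches, cannot be told apart.

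Trim12a had the largest ratio among the C57B-high members outside the immunoglobulin loci. This TRIM protein of the antiviral Trim5 family (chr7:104299894-104315466) lay between 5.15 and 26.2 FPKM with a median of 12.5 in C57B. In C3H it was at 0 in 18 of 24 lungs and at most 0.475 FPKM. Trim5 was also lower in the mean of C3H (0.106 against 2.04 FPKM), while Trim12c was not (12.8 FPKM in C3H, 8.73 FPKM in C57B). Trim12c held 7.16% of the Trim12a stretches, and the pair summed to 12.9 FPKM in C3H and 22.2 FPKM in C57B. Pttg1, the mitotic regulator securin, had 5.90 FPKM in C3H and 49.3 ± 15.5 FPKM in C57B (SD, n = 24), with no overlap, and under 1% of its stretches were shared. Prmt8, an arginine methyltransferase known from brain, lay between 2.97 and 16.8 FPKM in C57B and reached 0.667 FPKM in C3H. The lipid-mobilising glycoprotein Azgp1 lay between 2.18 and 11.0 FPKM in C57B and reached 0.764 FPKM in C3H. Smim6, a small membrane protein, ranged from 1.52 to 46.3 FPKM in C57B and from 0.376 to 6.06 FPKM in C3H, and Ccl27a, a skin chemokine, from 1.22 to 16.9 FPKM and from 0 to 4.49 FPKM. Both overlapped between strains over all lungs. Ccl27a shared 57.6% of its stretches with other transcripts, so its strain values are uncertain too. Fbxo44, a substrate receptor of a ubiquitin ligase, stood at 5.54 and 0.869 FPKM. On the opposite strand, Smim6 overlaps Recql5 (3.94 FPKM in C3H and 3.34 FPKM in C57B), Ccl27a overlaps Il11ra1 (46.1 and 42.8 FPKM), Hmga1 overlaps AI413582 (21.8 and 26.0 FPKM) and Prmt8 overlaps Gm42738 (0.0283 and 1.37 FPKM). Trim12a was the 1 member among 28 tested genes of known strain polymorphism and among 29 tested antiviral genes of the interferon response. None of 10 tested HIN200 genes, 6 NLR and NAIP genes, 21 glutathione S-transferases, 8 carboxylesterases or 14 serine protease inhibitors met the rule.

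**Figure D3:**
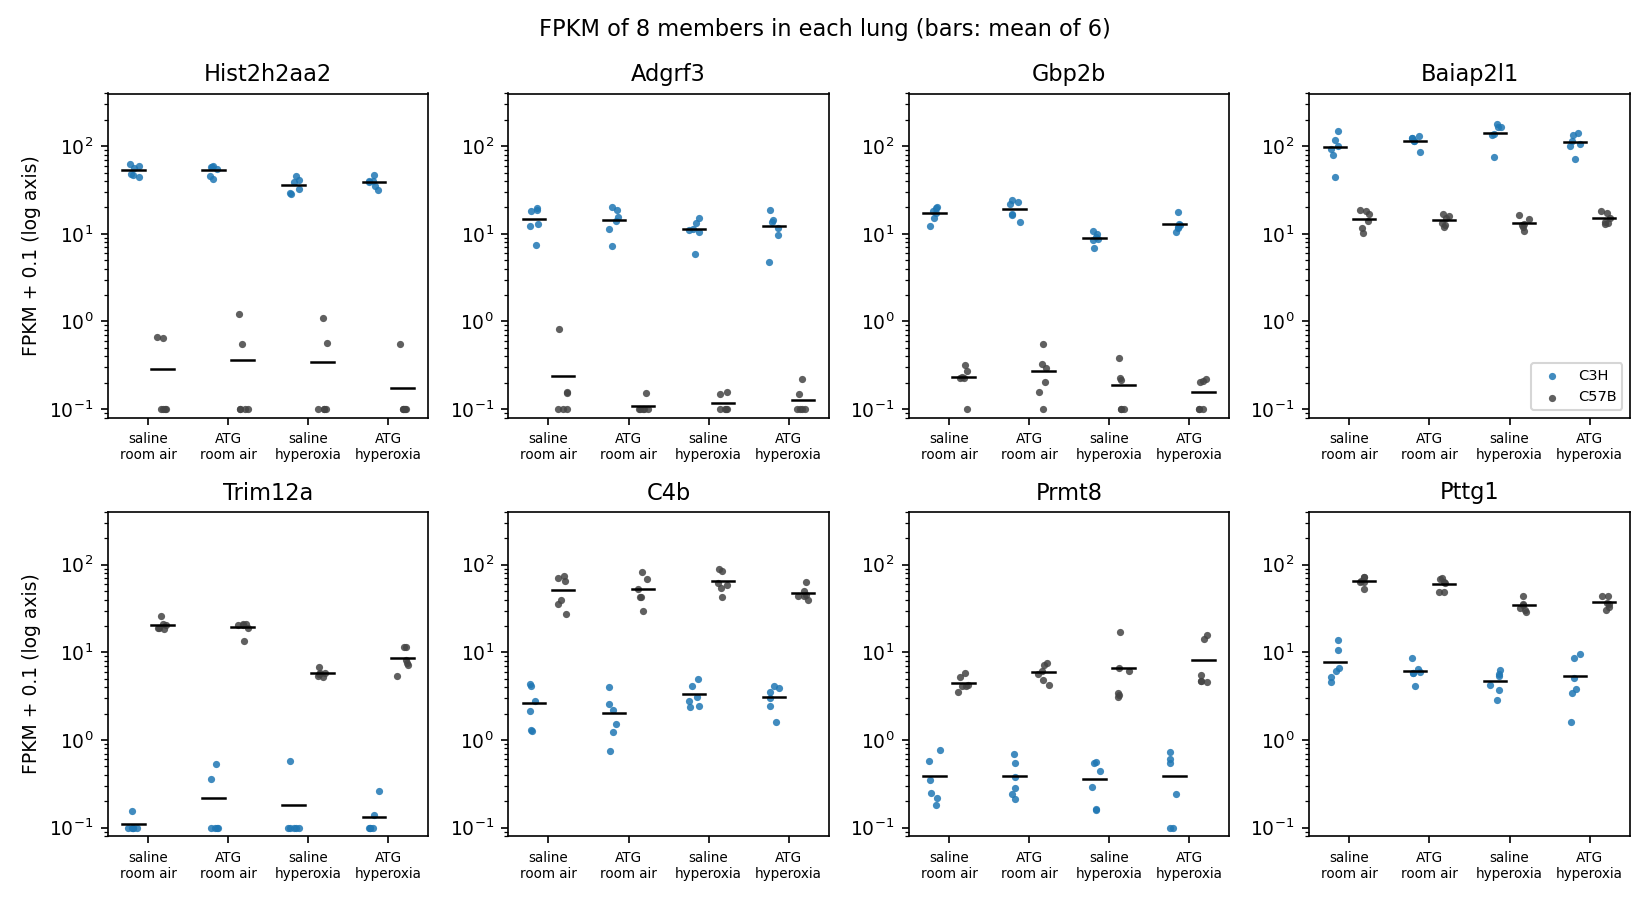
FPKM plus 0.1 of 8 members in each of 48 lungs by arm (log axis), C3H in blue and C57B in grey, with bars at the mean of 6 lungs. The strains do not overlap in any of these panels, and Hist2h2aa2, Adgrf3, Gbp2b and Trim12a lie near 0 in the lower strain.

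Neighbouring members mostly shared a direction. The 31 heavy chain members span chr12:113254830-116000461, the 10 kappa members chr6:67861153-70215957, and the lambda pair Iglc1 and Iglv1 lie on chromosome 16, all higher in C57B. C1s2 and Pianp lie within 1 Mb of each other on chromosome 6 and were both higher in C3H, as were Hist2h2ac and Hist2h2aa2 on chromosome 3. Rad51ap1 (higher in C3H) and Prmt8 (higher in C57B) were neighbours with opposite directions. The 5 members nearest to the threshold were Igkv2-109, Igha, Igkv17-127, Ighv1-12 and Iglc1, with smallest arm ratios of 4.08 to 4.33. The 5 genes nearest outside were Igkv17-121, Gatm, AA467197, Dynlt1b and Igkv4-59, at 3.75 to 3.97. The known strain marker Ifi202b, at 4.43 FPKM in C3H and 0.0376 FPKM in C57B, missed the floor.

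Among the immunoglobulin members, a few V segments were at or near 0 in C3H. Ighv9-3 (chr12:114140692-114141122) was listed at 0 in all 24 C3H lungs and lay between 4.85 and 34.9 FPKM with a median of 11.5 in C57B. Ighv8-8 was at 0 in 21 C3H lungs and reached 2.68 FPKM in the highest, against 3.02 to 56.7 FPKM in C57B. Ighv1-72, Ighv1-76, Ighv1-50 and Ighv1-85 were at 0 in 21, 21, 23 and 23 of the C3H lungs, and their medians in C57B were 15.8, 12.1, 5.92 and 5.80 FPKM. Only Ighv1-85 of these 6 overlapped, since 1 C57B lung was at 0. Related segments had values above 0 in C3H. Ighv9-2 had 1.23 FPKM in C3H and 5.71 FPKM in C57B, and Ighv8-5 had 1.88 and 1.16 FPKM. The windows of both pairs show where the related segments differ (mm10, minus strand, capitals mark differing bases, Ighv9-3 chr12:114140835-114140894, Ighv9-2 chr12:114109144-114109203, Ighv8-8 chr12:115294222-115294281, Ighv8-5 chr12:115067720-115067779):
Ighv9-3: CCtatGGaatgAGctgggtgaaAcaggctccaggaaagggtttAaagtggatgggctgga
Ighv9-2: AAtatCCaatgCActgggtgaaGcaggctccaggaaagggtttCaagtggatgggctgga
Ighv8-8: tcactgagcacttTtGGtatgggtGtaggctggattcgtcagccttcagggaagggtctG
Ighv8-5: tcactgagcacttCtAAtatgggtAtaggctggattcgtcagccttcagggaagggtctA
Ighv9-3 and Ighv9-2 differed at 8 of these 60 bases and Ighv8-8 and Ighv8-5 at 5. Of the 43 immunoglobulin members, 39 shared at least 10% of their stretches with another gene, as did 207 of the 249 tested immunoglobulin genes (90.7% against 83.1%).

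The constant regions among the members were Ighg2c, Ighg2b, Igha and Iglc1. Ighg2c encodes the IgG2c heavy chain of C57BL/6 mice, in place of which many other strains carry Ighg2a. It lay between 0.555 and 132 FPKM with a median of 8.33 in C57B and between 0 and 0.819 FPKM in C3H. Igha, the constant region of the mucosal antibody IgA (chr12:113254830-113260236), was the most abundant member, at 148 to 1069.5 FPKM with a median of 257 in C57B and 32.7 to 158 FPKM with a median of 65.9 in C3H. Its highest C3H lung was just above its lowest C57B lung. Outside the members, Igkc stood at 203 FPKM in C3H and 787 FPKM in C57B and Jchain, which joins IgA and IgM chains, at 18.0 and 83.2 FPKM, while the IgM constant region Ighm stood at 43.4 and 49.1 FPKM.

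Higher immunoglobulin levels in C57B reached well beyond the members. Of 249 tested immunoglobulin genes, 28 had a higher mean in C3H. The V segments summed to 411 FPKM in C3H and 1912 FPKM in C57B, and the members supplied 15.8% of that sum in C3H and 39.4% in C57B. The 43 members together summed to 65.4 to 266 FPKM with a median of 138 in C3H and to 426 to 3654 FPKM with a median of 788 in C57B, with no overlap. The B cell markers Cd79a, Cd79b and Ms4a1, all detected, moved in the same direction with smaller differences. Their sum was 8.90 to 56.8 FPKM with a median of 20.0 in C3H and 10.7 to 93.3 FPKM with a median of 46.2 in C57B. The members' sum per B cell marker sum was 3.52 to 13.2 in C3H and 7.78 to 104 in C57B, overlapping ranges with medians of 6.11 and 25.9. The rule chose the members by this strain contrast and did not choose the markers. Nothing is therefore read from the separation of the members' sum or from its larger gap beside the markers. In bulk RNA, fewer cells of a type and less RNA per cell cannot be told apart, and the part of B cell content in these values was not tested.

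**Figure D4:**
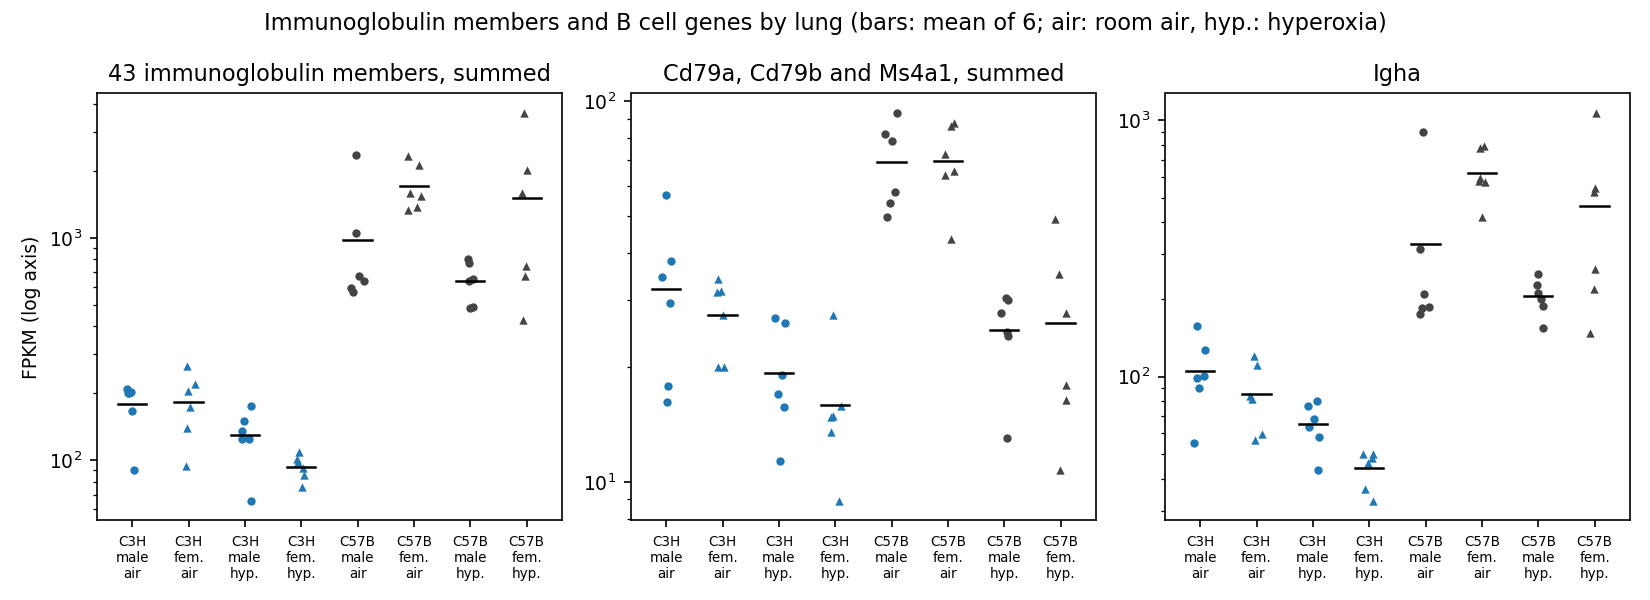
Summed FPKM of the 43 immunoglobulin members, summed FPKM of 3 B cell markers and FPKM of Igha in each lung (log axes) by strain, sex and air, with circles for males, triangles for females and bars at the mean of 6 lungs. The members' sum ran from 65.4 to 266 FPKM in C3H and from 426 to 3654 FPKM in C57B, and the marker sums overlap. The members were chosen by this strain contrast and the markers were not, so nothing is read from that gap.

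Hyperoxia was a contrast the rule did not use, and its effect was read in the strain where each member was higher (limma on log2(FPKM + 1), p adjusted over 16994 genes). Of the 21 members higher in C3H, 5 rose and 8 fell, against 35.3% and 19.9% of all tested genes in C3H. Of the 55 higher in C57B, 5 rose and 13 fell, against 32.3% and 33.6% of all tested genes in C57B. The median change over all tested genes was 0.09 in C3H and -0.03 in C57B on the log2 scale. The risers included Rnps1, Ahcy, Eno1b and Mpc1, and no immunoglobulin member rose. Of the other members that share sequence with copies, Hmga1 rose, whereas Hmgn2, Trim12a and Hist2h2aa2 fell. C4b, C1s2 and Klra3 did not pass the test.

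Hmga1 had the largest rise. In C57B it lay between 11.9 and 16.1 FPKM in room air and between 54.0 and 99.9 FPKM in hyperoxia, with 12 lungs each and no overlap. The log2 change was 2.26 (SE 0.14, limma adjusted p = 8.3e-17), and in C3H, where it is low, the log2 change was 0.96. Rnps1 went from 17.8 to 24.4 FPKM in room air to 37.3 to 52.8 FPKM in hyperoxia, again without overlap (log2 change 1.07, SE 0.11, limma adjusted p = 1.4e-10). Eno1b in C3H went from 15.0 to 24.0 FPKM to 31.5 to 49.9 FPKM, also without overlap (log2 change 0.96, SE 0.08, limma adjusted p = 2.4e-12). Eno1 itself had log2 changes of 0.79 in C3H and 1.05 in C57B, and Gm4735 of 1.14 and 1.09, so the enolase loci with shared sequence changed together. Ccdc190 had overlapping ranges, at 0.868 to 12.7 FPKM in room air and 6.26 to 26.0 FPKM in hyperoxia (log2 change 1.13, SE 0.20, limma adjusted p = 9.4e-06). B230206L02Rik, an RNA with a clone name, rose by 1.26 (SE 0.16). Ahcy rose by 0.95, from a median of 4.30 to 8.40 FPKM, and its ranges did not overlap. Fbp2, Azgp1, Fbxo44 and Mpc1 rose by 0.46 to 0.65.

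Smim6 had the largest fall. In C57B it went from 26.5 to 46.3 FPKM in room air down to 1.52 to 12.5 FPKM in hyperoxia, with no overlap (log2 change -2.49, SE 0.20, limma adjusted p = 1.4e-13). Trim12a fell from 13.5 to 26.2 FPKM to 5.15 to 11.5 FPKM in C57B (log2 change -1.41, SE 0.09, limma adjusted p = 2.3e-16), and the groups did not overlap. Its relatives Trim5 and Trim12c had log2 changes of -1.35 and -1.74 in C57B. Tnn in C3H had a median of 14.9 FPKM in room air and 4.65 FPKM in hyperoxia (log2 change -1.41, SE 0.13, limma adjusted p = 1.8e-11), with some overlap. In C57B, at levels of 0.159 to 2.48 FPKM, its log2 change was -0.99. Pttg1 fell from 48.6 to 73.1 FPKM to 28.8 to 44.0 FPKM (log2 change -0.80), with no overlap. Gbp2b fell by 0.71, Klk1b22 by 0.79 and Hist2h2aa2 and Cytl1 by 0.50 each in C3H. Hist1h2al, Hmgn2, Adgrf3 and Stk32c also fell, by 0.31 to 0.52. C4b had a log2 change of 0.14 in C57B and did not pass the test, at 27.6 to 82.2 FPKM in room air and 39.1 to 90.4 FPKM in hyperoxia. Atp5g2 (0.05), C1s2 (0.21), Klra3 (-0.03) and Baiap2l1 (0.25) did not pass it in C3H either.

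**Figure D5:**
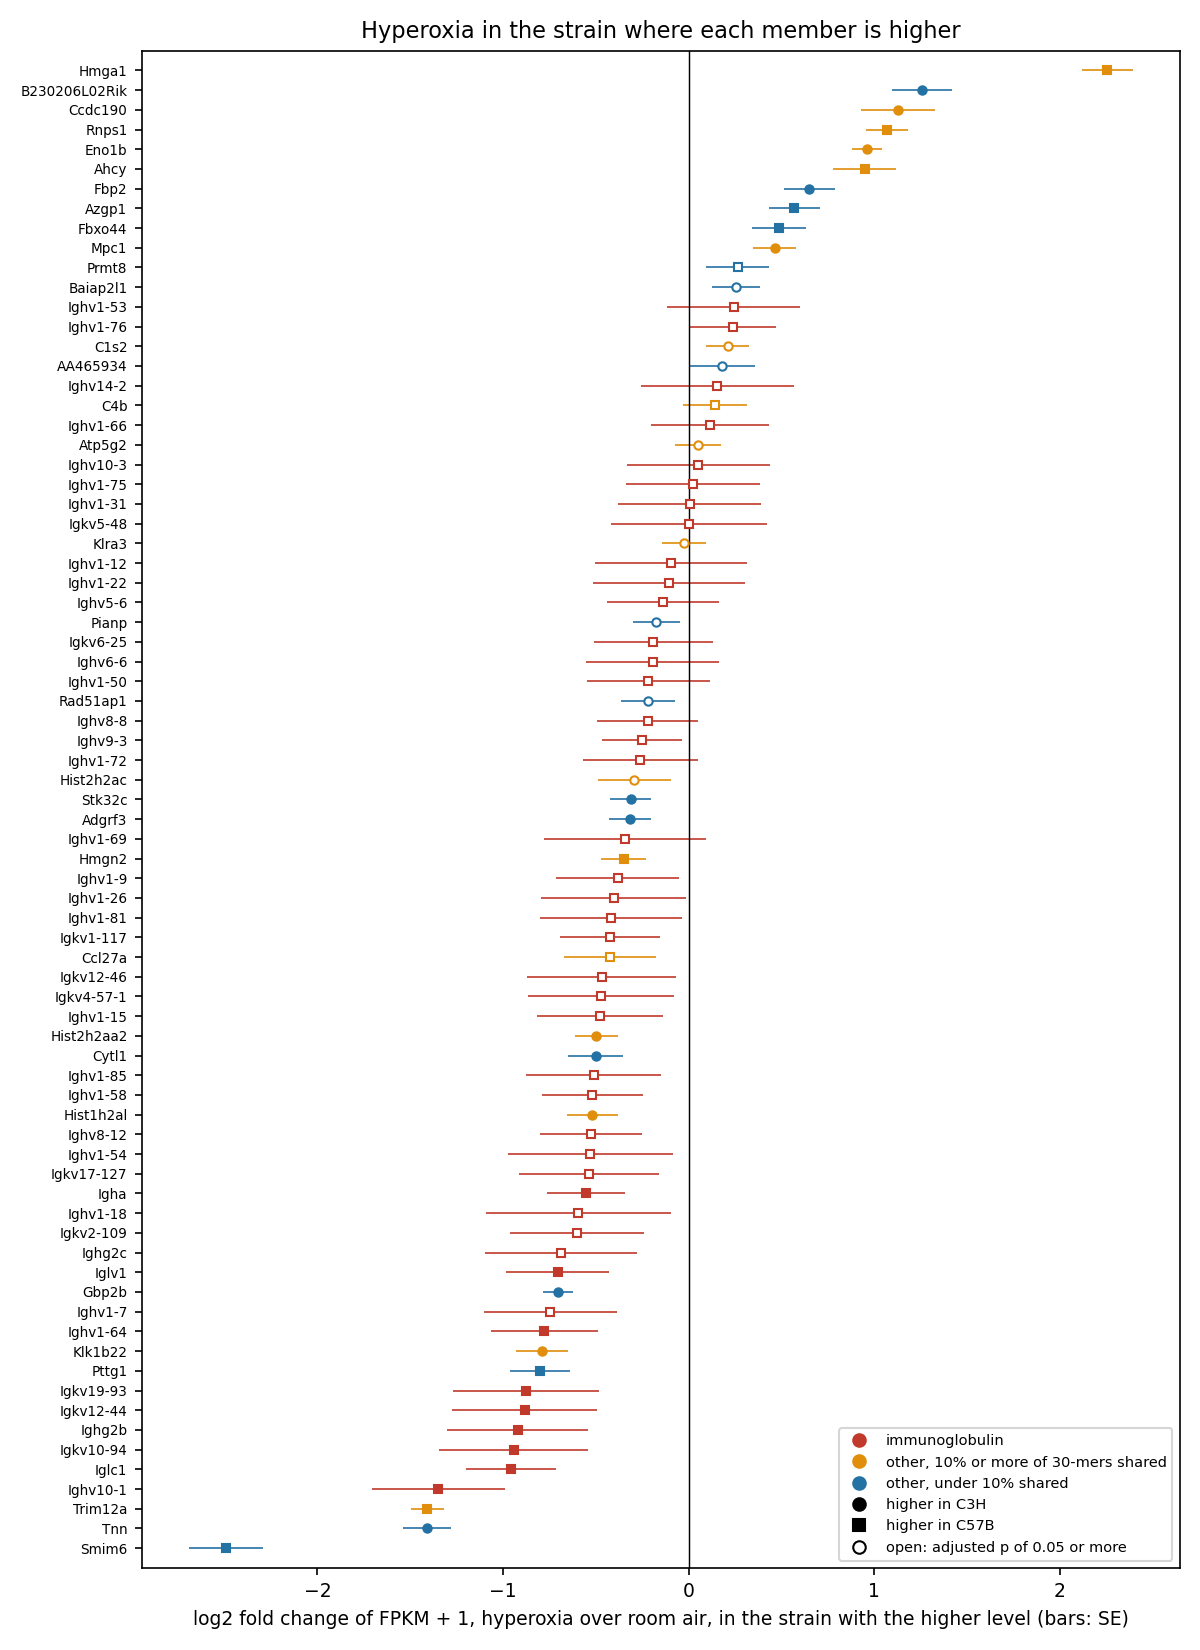
Log2 change of FPKM + 1 with hyperoxia for each of the 76 members in the strain where it is higher, with SE as bars, filled symbols at an adjusted p below 0.05 and open symbols otherwise. Hmga1 lies at 2.26 and Smim6 at -2.49, and the filled immunoglobulin members (red) all lie below 0.

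Of the 43 immunoglobulin members, 9 fell with hyperoxia in C57B and the log2 change was below 0 in 35 of 43, with a median of -0.42 (36 and 37 of 43 after quantile normalization and median ratio scaling). Of all tested genes, 33.6% fell in C57B, a larger share than among these members. Among all 249 tested immunoglobulin genes, 39 fell and none rose in C57B. Ighv10-1 had the largest fall, from a median of 17.1 FPKM to 4.22 FPKM with ranges of 5.59 to 60.5 and 0 to 36.5 FPKM (log2 change -1.35, SE 0.36, limma adjusted p = 0.0012). Iglc1 fell from a median of 32.0 to 13.5 FPKM (log2 change -0.96, SE 0.24, limma adjusted p = 0.00080). Igha, with medians of 497 and 223 FPKM, fell by 0.55 (SE 0.21, limma adjusted p = 0.022), although its highest lung of all was in hyperoxia. In each of these 3 the ranges overlapped widely. Ighg2b, Iglv1, Ighv1-64, Igkv10-94, Igkv12-44 and Igkv19-93 were the other members that fell. The B cell markers fell too, by more than the median of the members. In C57B the members' sum per B cell marker sum had a median of 17.1 in room air and 32.2 in hyperoxia. The marker sum in C57B was 43.4 to 93.3 FPKM in room air and 10.7 to 48.96 FPKM in hyperoxia, and the 3 markers had log2 changes of -1.33 to -1.50 in C57B. The part of B cell content in the fall of the members was not tested.

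ATG changed no member at the adjusted threshold in limma, and 5 of the 76 had an unadjusted p below 0.05 in the strain where they are higher (2 of 21 in C3H and 3 of 55 in C57B, against 9.66% and 9.7% of all genes tested). At the adjusted threshold, 0.465% of all genes rose and 0.053% fell with ATG in C3H and 0.0235% rose and 0.0883% fell in C57B. The nearest was Gbp2b in C3H, with a log2 change of 0.32 (SE 0.08, limma adjusted p = 0.055). The others were Smim6, Azgp1, Trim12a and Fbp2, with log2 changes of 0.18 to 0.51. Gbp2b passed the threshold without a mean trend in the variance (adjusted p = 0.041) and on leaving out 1 of 9 single mice, among them C3H males 2 and 3 given saline in room air (adjusted p = 0.019 and 0.035). Under the other alternatives it did not pass, with an adjusted p of 0.68 with a pseudocount of 0.1, 0.12 after median ratio scaling and 0.20 without C3H males 1 and 3, and in room air alone the log2 change was 0.16 (adjusted p = 0.66).

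Sex was pooled by the rule. In the strain where each member is higher, 8 members were lower in males and none was higher. These counts depended on scaling, since 15 passed after quantile normalization, 3 of them higher in males, and 13 after median ratio scaling, 4 of them higher in males. With each strain fitted alone 5 passed, 1 of them higher in males. The 8 were Adgrf3 in C3H, where 7.88% of all tested genes were lower and 3.73% higher in males, and 7 immunoglobulin members in C57B, where the shares were 0.989% and 1.01%. Adgrf3 had 4.72 to 13.8 FPKM with a median of 10.8 in C3H males and 11.0 to 20.3 FPKM with a median of 16.9 in C3H females (log2 difference -0.72, SE 0.11, limma adjusted p = 9.2e-05). The ranges overlapped slightly. In C57B it was near 0 in both sexes, and the strain by sex term was -0.81 (SE 0.16, limma adjusted p = 0.019). In that term 77 genes passed the test, 0.453% of those tested, and 3 of them were members. Without C3H males 1 and 3, the adjusted p was 0.0019 for the sex difference in C3H and 0.061 for the strain by sex term.

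Immunoglobulin members in C57B males lay below those in C57B females. The log2 difference was negative in all 43, also after quantile normalization and median ratio scaling, with a median of -0.92, and 7 passed the test. Among all 249 tested immunoglobulin genes the median was -0.53, and 19 were lower and none higher in males. Over all tested genes in C57B the median was 0.01. The members were measured in the same mice, so their number is not a number of independent observations. In the mice given saline in room air alone it was negative in 36 of 43 and none passed the test. Igha had 155 to 904 FPKM with a median of 205 in C57B males and 148 to 1069.5 FPKM with a median of 559.8 in C57B females (log2 difference -1.03, SE 0.21, limma adjusted p = 0.0086). Males and females overlapped over almost the whole range, but 1 male alone exceeded the median female. In C3H the order of the medians was the opposite, at 78.7 FPKM in males and 53.3 FPKM in females, and the strain by sex term was 1.44 (SE 0.30, limma adjusted p = 0.022). Iglc1 had medians of 12.5 FPKM in C57B males and 31.3 FPKM in C57B females (log2 difference -0.98, limma adjusted p = 0.031) and a strain by sex term of 1.50 (SE 0.34, limma adjusted p = 0.037). Without C3H males 1 and 3, the adjusted p of these terms was 0.10 for Igha and 0.13 for Iglc1. Ighv1-18 had the largest difference between the sexes (log2 difference -1.81, limma adjusted p = 0.048), at 0 to 33.9 FPKM in males and 3.41 to 197 FPKM in females. This call was fragile, since Ighv1-18 passed in only 17 of the 48 fits that left out 1 mouse. Ighv10-3, Ighv10-1, Ighv1-75 and Ighv1-58 were lower in males by 1.06 to 1.47. Ighv10-3 passed in 34 and Ighv10-1 in 44 of the 48 fits that left out 1 mouse. The B cell marker sum had medians of 40.0 FPKM in C57B males and 46.2 FPKM in C57B females, with means of 47.2 and 48.0 FPKM. Cd79a, Cd79b and Ms4a1 had log2 differences of -0.07, 0.07 and 0.04 between the sexes in C57B, and none passed the test. Jchain was lower in males (log2 difference -0.97, limma adjusted p = 0.036). ATG hyperoxia female 47 had the highest sum over the members, and the number past the test went from 7 to 1 without this mouse and to 2 without saline hyperoxia female 45.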

How the data were processed

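RNA from 48 mouse lungs was sequenced by the authors, who mapped the reads to mm10 with GSNAP (named in the submitters' processing notes) and derived FPKM with Cufflinks, so the deposited values are FPKM per gene and mouse and not counts. The annotation, the depth, the use of strand and the treatment of multiply mapped reads are not given in the sources used here. The study's methods name a poly(A) kit and the labels a directional mRNA kit. Since mm10 is the C57BL/6J genome, reads of C3H with variants may map less well; this was not tested.

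The members, gene lists and tests were chosen with earlier results of these data known. Groups came from the labels. Mouse numbers are unique, so no pairing of groups was made. No 2 of the 1128 pairs of libraries held identical values. Log2(FPKM + 1) of the 16994 genes with at least 1 FPKM in at least 3 mice entered a linear model with 16 group means (limma 3.58.1 under R 4.3.3, eBayes with trend), with Benjamini-Hochberg adjusted p-values and a threshold of 0.05, and contrasts of air, injection, sex and strain by sex were averaged over the other factors. The fit was tested on simulated data. Python 3.11.15 with numpy 2.4.6, pandas 2.3.3 and matplotlib 3.10.9 was used otherwise. Akap5, with values of at least 1000000, was left out. Coordinates and sequences came from GENCODE M21, which holds all 76 members. Shared sequence is the share of a gene's 30-base transcript stretches (1 in 8 sampled) found in another gene's transcripts too. Each sequence window is the ungapped 60-base coding window, within 1 exon of each gene, with the most differences, up to 12.

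Values are given for the 10 members with the largest smallest-arm ratio in each direction, members of the fixed lists, the 5 largest rises and falls with hyperoxia, the 3 largest each way for the other tests, members within 1 Mb of another, and the 5 genes on each side of the threshold. Genes named beyond these, and partner genes, were chosen after their values were seen. Alternatives covered the rule, the pseudocount, filters, scaling, the variance trend, subsets of mice and leaving out each mouse. Results for some genes are not reported here.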

Additional observations from a re-analysis of the deposited data

Results flagged for a closer look

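In groups of 6 lungs of the higher strain, the gap of the most extreme lung was compared with the range of the group for the 20 members with the largest ratios. It exceeded Dixon's 95% critical value for 6 samples in 17 of 80 groups. For normally distributed values, chance flags about 1 in 20 groups, or 4 of these 80. FPKM was used without a log scale and need not be normally distributed, so this number is only a rough guide. Immunoglobulin members held 13 of the 17, out of 36 groups tested, and the extreme lung was the highest in 16. These groups share mice, so they are not independent.

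In C57B given ATG in hyperoxia, female 47 stood above the rest for Ighg2c (132 FPKM against at most 8.81, ratio 0.944), Ighv1-50 (62.4 against 7.08, ratio 0.911), Ighv1-85 (34.9 against 5.68, ratio 0.900), Ighv1-72 (119.9 against 19.7, ratio 0.869), Ighv1-75 (89.5 against 20.6, ratio 0.812) and Ighv9-3 (34.9 against 14.8, ratio 0.67). In C57B given saline in hyperoxia, female 45 stood above the rest for Ighg2c (76.0 against 7.91, ratio 0.902), Ighv1-75 (69.5 against 10.9, ratio 0.869), Ighv9-3 (34.2 against 12.9, ratio 0.73) and Ighv1-76 (49.7 against 21.5, ratio 0.631). In C57B given ATG in room air, female 41 stood above the rest for Ighv8-8 (47.0 against 15.5, ratio 0.818), Ighv9-3 (22.6 against 11.9, ratio 0.783) and Ighv1-72 (66.2 against 20.2, ratio 0.773).

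Outside the immunoglobulin genes, Trim12a was lowest in C57B ATG room air female 42 (13.5 FPKM against at least 19.0, ratio 0.729) and highest in saline room air female 37 (26.2 against 20.9, ratio 0.664). Gbp2b was highest in C3H ATG hyperoxia male 12 (17.8 against 12.9, ratio 0.662). AA465934, an RNA with a clone name, was highest in C3H saline room air male 1 (91.7 against 45.5, ratio 0.6254), a mouse that also stands apart on the third principal component.

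The difference between males and females differed between the strains for 3 members in limma. The term (male minus female in C3H, less the same in C57B, on the log2 scale) was -0.807 for Adgrf3, 1.44 for Igha and 1.50 for Iglc1.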

How the results depend on the processing

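Of the 16 single-gene effects recomputed under each alternative, none changed direction. The rule gave 76 members. It gave 49 with a pseudocount of 1, 29 at 8-fold, 38 with a minimum mean of 10, 39 when each sex had to pass alone and 43 when no overlap was also required, all of them among the 76. The other 6 alternatives gave 68 to 113, and leaving out each mouse gave 66 to 80. Of the members, 31 passed the hyperoxia test, 21 to 33 under 9 alternatives and 25 to 37 on leaving out each mouse. None passed the ATG test, 1 (Gbp2b) without a variance trend, and 0 to 1 on leaving out each mouse. For sex, 8 passed. Other settings gave 2 with a pseudocount of 0.1, 5 with no filter, 15 after quantile normalization (3 of them higher in males), 13 after median ratio scaling (4 higher in males), 5 with each strain fitted alone (1 higher in males) and 0 in saline mice in room air only. Leaving out each mouse gave 2 to 15, and the count moved by over 1.5 times without C57B males 15 (2), 19 (13), 20 (3), 21 (5), 23 (5) or 24 (4) or females 39 (5), 41 (4), 42 (5), 45 (4), 47 (2) or 48 (15). For strain by sex, 3 passed, but 1 with a pseudocount of 0.1, 0 in saline mice in room air only and 0 without C3H males 1 and 3. Leaving out each mouse gave 2 to 6 (6 without C3H male 2). Leaving out both C3H males 1 and 3 was chosen after seeing the data. No paired analysis was possible because each mouse has its own number. Depth is unknown, so values near 0 have no stated limit.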
